A study of Homo sapiens with 6 samples.

Results

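The MX proteins are large GTPases of the dynamin superfamily that block the replication of viruses, and their 2 genes in humans, MX1 and MX2, are neighbours on chromosome 21. They were read beside 4 cellular members of the same superfamily, the dynamins DNM1, DNM2 and DNM3 and the dynamin-related DNM1L. These 6 genes were chosen by name among the 62710 gene rows of the table, and each was matched to a single row through its Ensembl ID. All 6 were among the 20716 genes tested.

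The cells were HT1080, a human line established from a fibrosarcoma. They were either left untreated or given IFNβ (20 ng/mL, 24 h), and mRNA was enriched and sequenced in 3 libraries of each group. The labels name human IFNβ for these libraries, as does the cell culture section of the study for lines other than 4T1. Its account of the RNA sequencing gives IFNβ of mouse. The labels name no genetic change in either group. The study describes its in vitro experiments in general as independent biological replicates, but the labels do not say whether the 3 libraries of a group came from separate cultures. If they did not, the p-values measure the spread between these libraries, which may be technical. The libraries held between 22848104 and 32915500 fragments. Levels are given as FPKM, the fragments of a gene scaled by the length of its exons and by the total fragments of the library. All 6 mesenchymal markers (VIM, FN1, S100A4, CD44, TIMP1 and SPARC), which fit a fibrosarcoma line, were detected, with a summed level of 871 to 921 FPKM in untreated and 903 to 937 FPKM in IFNβ-treated libraries. The untreated means ran from 2.68 FPKM for S100A4, on 51 to 96 fragments in a library, to 399 FPKM for VIM. The 6 leukocyte markers summed to 0.0497 to 0.276 FPKM in untreated and 0.0461 to 0.200 FPKM in treated libraries. Each of these 6 held at most 6 fragments in any library. As cells were sequenced in bulk, a change in the number of cells that express a gene and a change in the RNA per cell cannot be told apart.

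Proteins of this superfamily bind and hydrolyse GTP through a conserved N-terminal domain, assemble into rings or helices through a stalk, and use the cycle to bend, cut or coat their target. Dynamins cut the neck of endocytic vesicles at the plasma membrane, and the product of DNM1L, DRP1, constricts mitochondria and peroxisomes. MX proteins share this architecture, but act on viral nucleoprotein complexes or capsids. Transcription of the MX genes is induced by type I and type III interferons through the receptor, the kinases JAK1 and TYK2, and transcription factors that include STAT2 and IRF9.

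The kinship of the 6 genes is visible in the bases that encode the first GTP-binding motif, the phosphate-binding loop. These bases are shown because they show how close the MX pair and the dynamins are to each other at this motif. How well reads tell the genes apart was not tested. They were read from 1 coding transcript of each gene in GENCODE release 29 on GRCh38, and all 6 lie on the plus strand. Capitals mark the 24 bases of the motif, within 51 bases of coding sequence.
MX1: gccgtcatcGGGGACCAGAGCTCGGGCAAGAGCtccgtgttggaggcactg
MX2: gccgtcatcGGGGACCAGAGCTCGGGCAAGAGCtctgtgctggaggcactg
DNM1: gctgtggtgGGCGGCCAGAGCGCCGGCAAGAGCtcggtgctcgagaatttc
DNM2: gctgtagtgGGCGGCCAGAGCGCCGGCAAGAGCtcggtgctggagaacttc
DNM3: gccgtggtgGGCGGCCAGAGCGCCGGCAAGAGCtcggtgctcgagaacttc
DNM1L: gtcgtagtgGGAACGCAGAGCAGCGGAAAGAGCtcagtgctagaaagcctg
The MX1 stretch is at chr21:41435951-41436001 in exon 8 of its transcript, and the MX2 stretch is at chr21:41377903-41377953 in exon 3. Those of DNM1 (chr9:128203573-128203623), DNM2 (chr19:10718345-10718395) and DNM3 (chr1:171841759-171841809) are in exon 1. That of DNM1L is split over exons 1 and 2, between chr12:32679448 and chr12:32701447.

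MX1 and MX2 were identical at 49 of these 51 bases, and DNM1, DNM2 and DNM3 were identical to each other at 48 or 49. Either MX gene matched DNM1, DNM2 or DNM3 at 35 to 37 bases, and DNM1L matched the other genes at 32 to 36. The longest run of identical bases anywhere in the transcripts was 68 bases between MX1 and MX2, 44 between DNM1 and DNM3, and at most 14 between an MX gene and a dynamin. Stretches of 100 bases were taken from the coding transcripts in the basic set of that release, and not from all exons behind the FPKM. None was shared between any pair of the 6 genes. For MX1, 57 of these 4320 stretches (1.32%) were also found in another gene, the antisense RNA AP001610.1. None of those of the other members was found in any other gene of that release. Exons outside these transcripts were not searched, and exons of DNM1, DNM2 and DNM1L that overlap those of other genes are given below.

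MX1, whose product restricts influenza viruses and many other RNA viruses from the cytoplasm, lies at chr21:41420304-41459214 on the plus strand. Its levels were 0.185, 0.300 and 0.245 FPKM in the untreated libraries and 71.9, 70.1 and 69.6 FPKM after IFNβ. The groups were far apart, and the 3 treated libraries lay within a narrow range. These levels rested on 76, 160 and 145 fragments in untreated and on 39844, 31515 and 36186 fragments in treated libraries. MX1 thus rose 290-fold, from a mean of 0.243 ± 0.0575 FPKM to 70.6 ± 1.21 FPKM (± S.D., n = 3 per group). On the log2(FPKM + 0.1) scale the change was 7.70 with a 95% interval of 7.42 to 7.98 (S.E. 0.12; limma with Benjamini-Hochberg adjustment, adjusted p = 1.2e-07). This scale understates the change of a gene that starts low.

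MX2, whose product restricts HIV-1 and herpesviruses at the nuclear envelope, lies at chr21:41361943-41409390 on the plus strand. Its levels were 0.0240, 0.0116 and 0.0167 FPKM in the untreated libraries and 43.5, 43.1 and 43.3 FPKM after IFNβ. The untreated values stood for 8, 5 and 8 fragments, so that MX2 was detected in each untreated library but only just, against 19523, 15696 and 18200 fragments in the treated ones. MX2 thus rose 2484-fold, from a mean of 0.0174 ± 0.00627 FPKM to 43.3 ± 0.202 FPKM (± S.D., n = 3 per group). With the fragments of each group pooled, the ratio of the rates was 2567 with a 95% counting interval of 1679 to 4147, and that of MX1 was 285 with an interval of 258 to 316. These intervals cover counting error only. On the log2 scale the change of MX2 was 8.53 with a 95% interval of 8.39 to 8.68 (S.E. 0.06; limma, adjusted p = 4.1e-09).

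**Figure D1:**
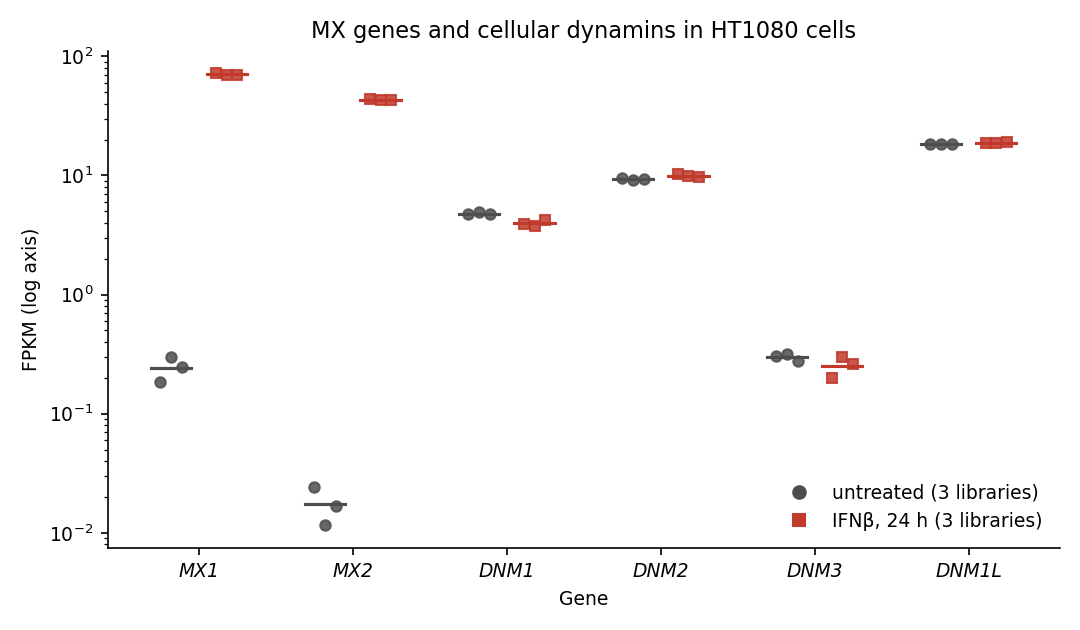
FPKM (log axis) of MX1, MX2 and the 4 dynamins in each of 3 untreated (grey circles) and 3 IFNβ-treated (red squares) HT1080 libraries, with lines at the group means. The means of MX1 and MX2 moved from below that of DNM3 to above every dynamin, while no dynamin moved by a distance that is easily seen on this axis.

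Both MX genes were differentially expressed genes (DEGs), for which the adjusted p had to be under 0.05 and the log2 change at least 1 in size. Of all genes tested, 4.22% were DEGs, made up of 3.49% that rose and 0.739% that fell. By log2 change, MX2 ranked 4 and MX1 ranked 9 of the 20716 genes with the pseudocount of 0.1, 12 and 11 with a pseudocount of 1, and 5 and 17 with 0.01. By level, MX1 was at rank 16637 of all gene rows in untreated and at rank 500 in treated libraries, and MX2 was at rank 27009 and rank 893. Ranks by level depend on the gene lengths behind the FPKM.

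MX1 and MX2 were closer in level in the treated libraries. The ratio of MX1 to MX2 FPKM was 7.69, 25.9 and 14.7 in the untreated libraries, where it depended on the 5 to 8 fragments of MX2, and 1.65, 1.63 and 1.61 after IFNβ. MX1 exceeded MX2 in each of the 6 libraries. On the log2(FPKM + 0.1) scale, MX2 rose by 0.83 more than MX1 (standard error 0.19; exact two-sided permutation test, p = 0.10, the smallest that 3 against 3 libraries allow). The sign of this difference depended on the pseudocount, since with 1 in place of 0.1 it was -0.40. Together the MX genes took 0.000463% ± 9.4e-05 of the fragments of an untreated and 0.190% ± 0.00245 of those of a treated library (± S.D., n = 3 per group).

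Among the dynamins, DNM1, the form best known from the recycling of synaptic vesicles, lies at chr9:128191655-128255248. Its levels were 4.73, 4.89 and 4.72 FPKM in untreated and 3.93, 3.76 and 4.21 FPKM in treated libraries, and every treated library was below every untreated one. Its mean was 4.78 ± 0.0948 FPKM in untreated and 3.97 ± 0.224 FPKM in treated cells (± S.D., n = 3 per group). On the log2 scale DNM1 changed by -0.26 with a 95% interval of -0.39 to -0.14 (S.E. 0.05; limma, adjusted p = 0.0082). DNM1 was therefore past the adjusted p, but not a DEG. A small decrease of this kind was not rare, as 17.5% of all genes tested were lower at an adjusted p under 0.05.

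DNM2, the dynamin of most tissues and the one known for general clathrin-mediated endocytosis, lies at chr19:10718079-10833488. Its levels were 9.45, 9.11 and 9.32 FPKM in untreated and 10.2, 9.95 and 9.73 FPKM in treated libraries. The treated libraries were all higher, by a small step. The mean was 9.29 ± 0.175 FPKM in untreated and 9.98 ± 0.262 FPKM in treated libraries (± S.D., n = 3 per group). On the log2 scale this was a change of 0.10 with a 95% interval of 0.03 to 0.18 (S.E. 0.03; limma, adjusted p = 0.047). This call was marginal, because 11 of 16 alternative settings, among them leaving out any single library, took the adjusted p above 0.05, up to 0.13. Of all genes tested, 15.2% were higher at an adjusted p under 0.05. In GENCODE release 29 the last exons of DNM2 share 776 bases with exons of TMED1, a cargo receptor gene of the secretory pathway on the opposite strand. The DNM2 length behind the FPKM was 17565 bases, against 13443 in that release, so the overlap in the exons counted is not known. The sources used here do not say whether the counting used strand. TMED1 was at 8.83 ± 0.772 FPKM in untreated and 13.1 ± 0.713 FPKM in treated libraries (± S.D., n = 3 per group; log2 change 0.57, limma, adjusted p = 0.0015), on 413 to 548 fragments in untreated and 616 to 801 in treated libraries, whereas DNM2 held 3794 to 5387 and 4367 to 5544. The part of TMED1 in the DNM2 values was not tested.

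DNM3, known mainly from brain and testis, lies at chr1:171841498-172418466 and was the dynamin with the lowest level. It was at 0.307, 0.319 and 0.277 FPKM in untreated and at 0.200, 0.297 and 0.263 FPKM in treated libraries, and the groups overlapped. Its log2 change of -0.19 had a 95% interval of -0.66 to 0.28 and did not pass the test (S.E. 0.19; limma, adjusted p = 0.52). It rested on 73 to 112 fragments in a library.

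DNM1L, which encodes DRP1, lies at chr12:32679200-32745650 and was the dynamin with the highest FPKM. Its levels were 18.5, 18.4 and 18.3 FPKM in untreated and 18.8, 18.7 and 18.9 FPKM in treated libraries. The treated libraries were all above the untreated ones, but by very little. The mean was 18.4 ± 0.114 and 18.8 ± 0.121 FPKM (± S.D., n = 3 per group). Its log2 change of 0.03 had a 95% interval of -0.02 to 0.08 and did not pass the test (S.E. 0.02; limma, adjusted p = 0.28).

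**Figure D2:**
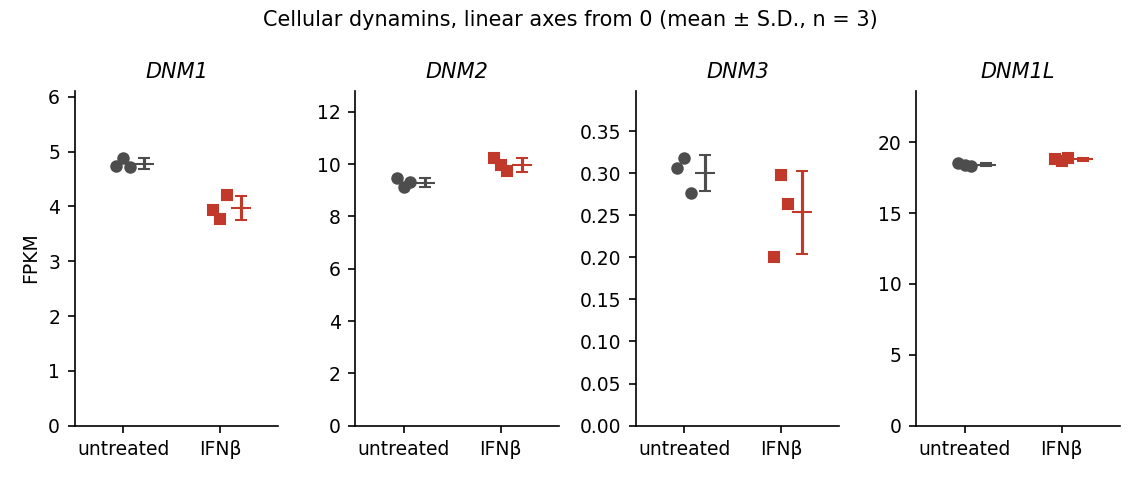
FPKM of the 4 cellular dynamins on linear axes from 0, with 3 untreated (grey circles) and 3 IFNβ-treated (red squares) libraries and the mean ± S.D. beside them. DNM1 was lower after IFNβ in all 3 libraries, the 2 groups of DNM3 overlapped, and DNM2 and DNM1L differed by a small step.

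Of the 6 members, 5 had groups that did not overlap, and 4 had an adjusted p under 0.05. Among all genes tested the shares were 46.6% and 32.7%, so that for the dynamins a lack of overlap was a common outcome. The summed level of the 4 dynamins was 32.8 ± 0.214 FPKM in untreated and 33.0 ± 0.262 FPKM in treated libraries (± S.D., n = 3 per group). That of the 2 MX genes went from 0.261 ± 0.0512 to 114 FPKM, with 113 to 115 FPKM in the 3 treated libraries. In FPKM the dynamins were therefore 129 ± 26.8 times the MX level in untreated libraries, and 0.290 ± 0.00322 times that level after IFNβ. The size of these ratios depends on the gene lengths behind the FPKM, and levels by transcript length are given below.

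Within the dynamin sum, DNM1L made up 56.2% ± 0.0401 in untreated and 57.0% ± 0.291 in treated libraries (± S.D., n = 3 per group). The share of DNM2 was 28.3% ± 0.419 and 30.2% ± 0.784, and that of DNM1 was 14.3%, 15.0% and 14.5% in untreated and 11.9%, 11.5% and 12.7% in treated libraries. DNM3 made up 0.917% ± 0.0639 and 0.769% ± 0.155. The ratio of DNM1 to DNM2 was 0.501, 0.537 and 0.507 in untreated and 0.384, 0.378 and 0.432 in treated libraries, without overlap. The shares and this ratio also depend on the gene lengths behind the FPKM.

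In untreated cells the order of the FPKM levels was DNM1L, DNM2, DNM1, DNM3, MX1 and MX2, and only DNM3 and MX1 overlapped between libraries. After IFNβ the order was MX1, MX2, DNM1L, DNM2, DNM1 and DNM3, with no overlap between neighbours. FPKM divide by the length of all exons of a gene, and the lengths recovered from the values were 1.56 (DNM3) to 5.18 (MX1) times that of the coding transcript chosen above. Divided by the transcript length instead, the level of MX1 was 1.26 ± 0.298 in untreated and 366 ± 6.29 in treated libraries, and that of MX2 was 0.0835 ± 0.0300 and 207 ± 0.968 (FPKM ± S.D., n = 3 per group). DNM1L was then at 59.7 ± 0.369 and 60.9 ± 0.391, DNM2 at 45.5 ± 0.857 and 48.8 ± 1.28, DNM1 at 15.8 ± 0.314 and 13.1 ± 0.742, and DNM3 at 0.468 ± 0.0334 and 0.394 ± 0.0767. On that scale MX1 stood above DNM3 in untreated cells too, and the other places in both orders were as before. These places rest on 1 transcript of each gene. That of DNM1L had 2487 bases where its coding transcripts ranged from 2393 to 4439, and that of DNM2 had 3588 where they ranged from 2774 to 3588. The order with other transcripts was not tested.

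MX1 and MX2 were next placed among 20 other antiviral genes, a list that holds the IFIT, OAS and IFITM families, the ubiquitin-like modifier ISG15, the tetherin gene BST2, the viperin gene RSAD2 and others. All 20 were higher at an adjusted p under 0.05, beside 15.2% of all genes tested, and 18 were DEGs, beside 3.49% that were DEGs and rose. The median log2 change was 6.47 for this list beside 0.000167 for all genes tested. In FPKM after IFNβ, MX1 was at place 13 of the 22 genes and MX2 at place 18. Places by level depend on the gene length behind the FPKM. For MX1 this was 17984 bases, against 8616 of merged exons in GENCODE release 29, and for MX2 14562 against 13047. The places with other lengths were not tested. OAS3, an oligoadenylate synthetase that activates RNase L, was just above MX1 at 82.1 ± 0.498 FPKM, and the kinase gene EIF2AK2 was below it at 47.4 ± 0.679 FPKM. SAMHD1, which depletes the nucleotide pool, was at 43.6 ± 0.610 FPKM and did not differ in FPKM from MX2 beyond the spread of the libraries. ISG15 was at the top with 1448 ± 30.1 FPKM. In untreated cells MX2 was the lowest of the 22 and MX1 was at place 18. By log2 change with the pseudocount of 0.1, MX2 was at place 4, after BST2, RSAD2 and IFIT1, and MX1 at place 7. With a pseudocount of 1 the places were 11 and 10, and with 0.01 they were 3 and 7.

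**Figure D3:**
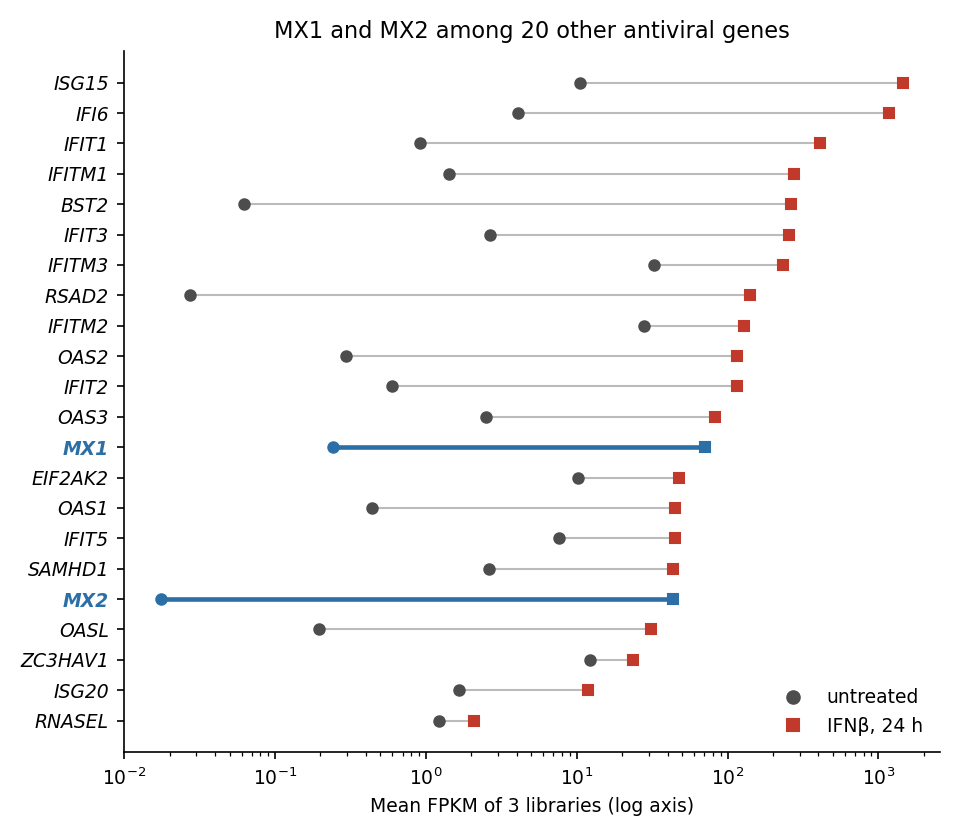
Mean FPKM of 3 libraries (log axis) in untreated (circles) and IFNβ-treated (squares) cells for MX1, MX2 (blue) and 20 other antiviral genes, ordered by the level after IFNβ. MX2 started lowest of all at 0.0174 FPKM and ended at 43.3, close to SAMHD1, while MX1 ended between OAS3 and EIF2AK2. The order depends on the gene lengths behind the FPKM.

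Genes with a profile close to that of each member were sought by the Euclidean distance between log2(FPKM + 0.1) values over the 6 libraries. For MX1 these were OAS2 (distance 1.35), OAS1 (1.65), OASL (2.18), IFIT2 (2.22) and USP18 (2.22), all of them interferon-stimulated genes. For MX2 they were IFI44L (0.619), CXCL11 (1.74), CXCL10 (1.81), OASL (2.46) and LGALS9 (2.74). IFI44L was at 1 fragment in each untreated library and at 35.2 ± 0.472 FPKM after IFNβ. CXCL10 and CXCL11, which encode chemokines, were at 0 fragments in 3 and 2 of the untreated libraries. The distance is dominated by the step between the groups, and by the pseudocount where a gene was near 0. The nearest genes were COMMD9, ALKBH4 and PTPN2 for DNM1, ZNF655, FAAP100 and ARID1A for DNM2, and PIP4K2B and FBXL5 for DNM1L. DNM3 was left out of this search, since its mean was under 1 FPKM.

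The pathway that leads from IFNβ to the MX genes was read through 11 genes, of which 10 were tested. Of these, 7 rose and 1 fell at an adjusted p under 0.05, beside 15.2% and 17.5% of all genes tested, and 2 did not pass. There were 5 DEGs, all higher, beside 3.49% of all genes tested. The transcription factor genes STAT2 and IRF9 were among them. The level of STAT2 went up to 40.6 ± 0.781 FPKM from 3.88 ± 0.0940, and that of IRF9 to 1.53 ± 0.195 from 0.136 ± 0.0186 (± S.D., n = 3 per group). The feedback inhibitors USP18 and SOCS1 rose as well, with log2 fold changes of 6.38 and 1.15. SOCS3, another feedback inhibitor on the list, did not pass the test. It was at 10.6 ± 0.553 FPKM in untreated and 10.1 ± 0.539 FPKM in treated libraries (log2 fold change -0.07; limma, adjusted p = 0.38). The receptor chains had low or moderate levels, with IFNAR1 at 5.57 ± 0.301 and 4.81 ± 0.0571 FPKM (log2 fold change -0.20; limma, adjusted p = 0.016) and IFNAR2 at 0.193 ± 0.00375 and 0.265 ± 0.00402 FPKM (0.32; adjusted p = 0.25).

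Promoter windows from RefSeq (GRCh38.p14, 250 bases before to 50 after a transcription start) were searched on both strands for an interferon-stimulated response element, written as GAAANNGAAA, and for a gamma-activated site, written as TTCNNNGAA. The table holds 3 windows for MX1 and 1 for each dynamin, and MX2 has no entry. A closer repeat, GAAANGAAA, was added after the MX1 windows had been read. Of 35116 windows of all genes, 3.57% hold GAAANNGAAA, 3.12% hold GAAANGAAA and 7.66% hold TTCNNNGAA. Each MX1 window held at least 1 match, but window 2 only through this added repeat. The 30 bases around a match in each are shown because MX1 was the member with the strong response for which windows were at hand. Capitals mark GAAANNGAAA or GAAANGAAA on either strand.
MX1 window 1: agcgagcaGAAATGAAACCGAAActgaatt
MX1 window 2: aggagctaggTTTCGTTTCtgcgcccggag
MX1 window 3: gtcactctgTTTCTCTTTCcgtgaataaaa
The first is at chr21:41420556-41420585, where the start site lies within the bases shown, the second at chr21:41426116-41426145 and the third at chr21:41431845-41431874, all given on the plus strand.

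In window 1 a GAAANNGAAA match (GAAACCGAAA) began 12 bases into the transcript and overlapped a GAAANGAAA match, and a second GAAANGAAA match lay on the minus strand just before the start. Window 2 held 2 matches of GAAANGAAA on the minus strand, 1 of them shown, and none of GAAANNGAAA. Window 3 held a GAAANNGAAA match on the minus strand that overlapped the TTCNNNGAA match TTCCGTGAA. None of these patterns was found in the 4 dynamin windows, which says only that these letters are not in those bases. Among the windows of DEGs that rose, 96 of 466 (20.6%) held GAAANNGAAA, as did 13 of 17 windows of the other antiviral genes. A match is a description of the sequence and was not measured as a binding site here.

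The 23 other annotated genes within 500 kb of the MX pair give the setting of the locus. MX2 ends 10.9 kb before MX1 starts, and both are read in the same direction. Of the 23 genes, 12 were at 0 in all libraries and 7 had a mean of at least 0.1 FPKM and were tested. Of these 7, 1 was a DEG, and in all 2 rose and 2 fell at an adjusted p under 0.05, with a median log2 fold change of 0.09. Over all genes tested the shares were 4.22%, 15.2% and 17.5%. The DEG was AP001610.1, an antisense RNA at chr21:41441056-41445708 within MX1, which had 0 fragments in each untreated library and 26, 17 and 16 in the treated ones (0.757, 0.610 and 0.496 FPKM). Against the FPKM of 3 fragments per library it was at least 6.42-fold higher. In GENCODE release 29 it shares 236 exonic bases with MX1, which held 31515 to 39844 fragments in the same libraries. Without knowledge of the strand, reads within shared bases cannot be told apart. The MX1 length behind the FPKM was 17984 bases, against 8616 in that release, so the overlap in the exons counted is not known. The part of MX1 in the AP001610.1 values was not tested.

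BACE2, a protease gene related to that of the β-secretase, was at 10.9 ± 0.514 FPKM in untreated and 8.30 ± 0.118 FPKM in treated libraries (log2 fold change -0.38; limma, adjusted p = 6.6e-04). C2CD2 was at 6.80 ± 0.229 and 5.55 ± 0.0410 FPKM (-0.29; adjusted p = 0.0013). RIPK4, a kinase gene, was at 0.224 ± 0.0290 and 0.476 ± 0.0905 FPKM (0.82; adjusted p = 0.020), on 23 to 60 fragments. PRDM15, AP001619.1 and AP001619.2 did not pass the test. FAM3B and TMPRSS2, the next coding genes on either side of the pair, held at most 17 and 3 fragments in a library and were too low to be tested.

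**Figure D4:**
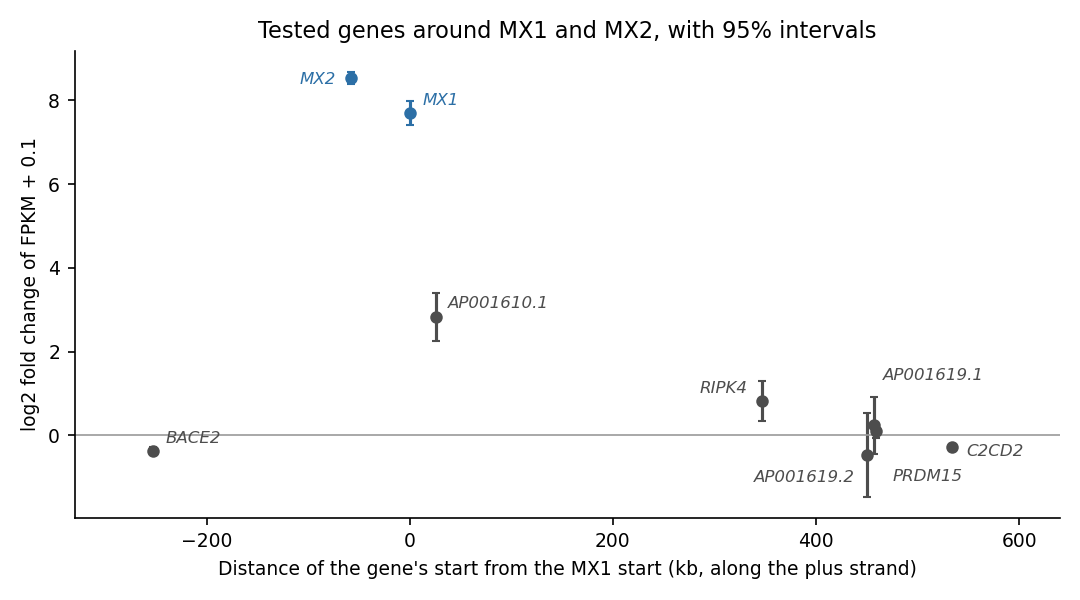
Log2 fold change of FPKM + 0.1 with its 95% interval against the distance in kb of each gene's start from the MX1 start, for MX1 and MX2 (blue) and the 7 tested neighbours (grey). The MX genes stand at 7.70 and 8.53, the antisense AP001610.1 at 2.83, and the other neighbours between -0.46 and 0.82.

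Of 11 other large GTPases of the superfamily, 5 were DEGs, all higher, beside 3.49% of all genes tested, and these were the 5 guanylate-binding proteins GBP1 to GBP5, GTPases of antimicrobial defence. GBP1 reached 54.6 ± 1.18 FPKM from 5.49 ± 0.298, and GBP4 2.74 ± 0.0551 FPKM from 0.0112 ± 0.0048 (± S.D., n = 3 per group). Another 4 fell at an adjusted p under 0.05, beside 17.5% of all genes tested. OPA1, which fuses the inner mitochondrial membrane, was at 27.6 ± 0.0378 and 21.3 ± 0.523 FPKM (log2 fold change -0.37; limma, adjusted p = 7.9e-05). MFN1 and MFN2 of the outer membrane had log2 fold changes of -0.13 and -0.11 (adjusted p = 0.0054 and 0.046). Among the atlastins, which fuse endoplasmic reticulum tubules, ATL3 fell by 0.40 on the log2 scale (adjusted p = 1.6e-04), and ATL1 and ATL2 did not pass the test. The median of the 11 was 0.11.

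Genes that work with the dynamins were also read. Of 20 partners of dynamin in endocytosis, 18 were tested. With either limma or limma-voom, 5 rose and 5 fell at an adjusted p under 0.05, beside 15.2% and 17.5% of all genes tested with limma, and 0 reached the fold threshold at any p, and the median log2 fold change was -0.020. CTTN, which links dynamin to actin, was at 40.4 ± 0.350 and 40.4 ± 0.300 FPKM, and SH3GL1, an endophilin gene, at 40.0 ± 0.969 and 35.9 ± 1.08 FPKM (-0.16; limma, adjusted p = 0.0080). The largest differences were those of PACSIN3 (-0.45), AMPH (0.33) and DNMBP (0.30), which encode proteins that bind dynamin. Of the 6 genes for receptors of DRP1 and fission factors, 1 rose and 3 fell, beside the same 15.2% and 17.5%. In this list 0 reached the fold threshold at any p with either tool, and the median was -0.13. FIS1, which lies in the outer mitochondrial membrane, was at 22.1 ± 1.20 and 20.9 ± 0.736 FPKM (-0.08; adjusted p = 0.25), and the receptor gene MIEF1 was at 20.5 ± 0.745 and 16.6 ± 0.0275 FPKM (-0.30; adjusted p = 5.5e-04). MFF, the main receptor in many cells, had -0.19 (adjusted p = 0.0066), SPIRE1 had -0.42 (6.1e-04) and INF2, a formin gene, had 0.16 (0.0075).

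A further list held 9 genes known for a direct or indirect link to MX proteins or to the capsids that MX2 restricts. Of these 9, 4 fell and 0 rose at an adjusted p under 0.05 of limma, beside 17.5% and 15.2% of all genes tested (1 rose at an unadjusted p under 0.05, and 1 with limma-voom). The median log2 fold change was -0.06, and 0 reached the fold threshold at any p with either tool. PPIA, the gene of cyclophilin A, was at 193 ± 5.38 and 179 ± 3.81 FPKM (-0.11; limma, adjusted p = 0.021), and the RNA helicase gene DDX39A at 53.8 ± 1.97 and 45.2 ± 1.07 FPKM (-0.25; adjusted p = 0.0016). The nuclear import receptor gene TNPO1 had -0.15 (limma, adjusted p = 0.0047). CPSF6, a capsid-binding processing factor, had -0.08 (limma, adjusted p = 0.04997), so that its call was marginal. DDX39B, SMARCA2 and the nucleoporin genes RANBP2, NUP214 and NUP153 did not pass the test.

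**Figure D5:**
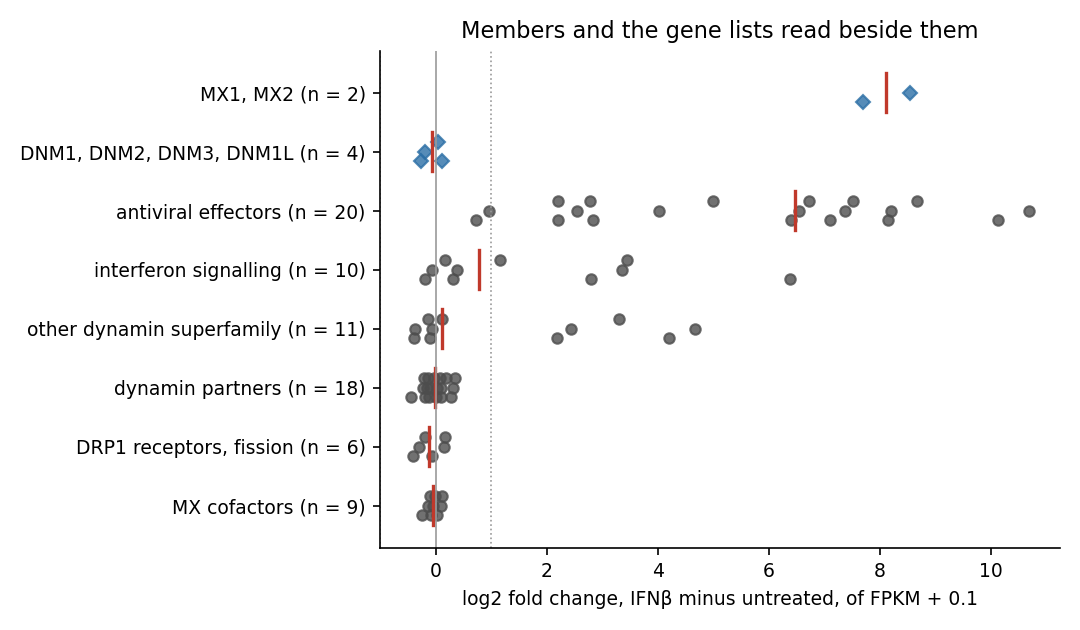
Log2 fold change of FPKM + 0.1 of the members (blue diamonds) and of the tested genes of each list (grey circles), with red bars at the medians and dotted lines at the fold threshold of DEGs. MX1 and MX2 lie among the antiviral effectors, and the 4 dynamins lie between -0.26 and 0.10.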

How the data were processed

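RNA of 6 HT1080 libraries, 3 untreated and 3 given IFNβ, was sequenced by the authors on an Illumina platform after enrichment of mRNA. The processing notes of the submitters name fastp, HISAT2, StringTie and GRCh38, without versions. The annotation release, the gene lengths and the use of strand are not given in the sources used here. The authors deposited 1 FPKM value per Ensembl gene and library.

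Symbols came from a table of gene names, and locations from GENCODE release 29, which lacks 4436 of the 62710 gene IDs. Whole fragments were recovered from the FPKM for 100% of the 35303 genes above 0, within a tolerance of 1e-05, and added up to 99.9% of each library's number. Within a group, library pairs differed by more than counting error (chi-square per degree of freedom 1.80 to 3.41), so that no library was listed more than once.

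Groups came from the labels. They were compared with limma 3.58.1 (R 4.3.3; lmFit, eBayes with trend) on log2(FPKM + 0.1), restricted to a mean of at least 0.1 FPKM, with Benjamini-Hochberg adjustment over all 20716 genes. FPKM, the deposited unit, are not counts, so the count test stated by the study was not run, and the recovered fragments were fitted only with limma-voom as an alternative. The difference between MX2 and MX1 was tested by exact permutation over libraries. Other steps used Python 3.11.15 (pandas 2.3.3, numpy 2.4.6, scipy 1.17.1). The members and lists were chosen with earlier results of these data known. Genes named with values by rule are the 6 members, list genes that were DEGs or the most abundant of a list, the nearest profiles, and tested neighbours. Other list genes, the receptor chains and genes with shared exons were added after their values were seen. A listed gene and a nearest profile are counted but not reported here. Alternatives covered pseudocounts, filters, scalings, the variance model, the replicate number as a block, limma-voom on the fragments, no fold threshold, and each library left out in turn.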

Additional observations from a re-analysis of the deposited data

How the results depend on the processing

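MX1, MX2 and DNM1 kept their direction and an adjusted p under 0.05 of limma under all 16 alternatives, with log2 fold changes of 5.85 to 8.17, 5.44 to 11.27 and -0.31 to -0.22. DNM3, under the 15 that kept it, and DNM1L passed under none (-0.33 to -0.054 and 0.025 to 0.043). The call of DNM2 (log2 fold change 0.10) was lost without trend (0.10, adjusted p = 0.11), with equal FPKM totals (0.11, 0.056), without a filter (0.10, 0.070) and with quantiles (0.080, 0.089), and whichever library was left out (0.082 to 0.12). The cause was not tested. The difference between MX2 and MX1 turned from 0.83 to -0.40 with a pseudocount of 1, was 2.50 with 0.01, and was 0.68 to 1.00 with a library left out. Of the list genes, 29 were called in the reported fit, and 59 without the fold threshold, which by construction adds small changes. With a library left out the number was 29 each time. No scaling moved the median of all genes by more than 0.058 on the log2 scale.

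The labels give replicate numbers to both groups, but the numbers did not pair the libraries. Deviations from the group means correlated at 0.053, -0.018 and 0.12 over 11996 genes for numbers 1, 2 and 3, and untreated libraries 1 and 2 correlated best with another number. With the replicate block, the count of DEGs was 829 instead of 875, and the log2 fold change of DNM2 stayed at 0.10 with a limma adjusted p of 0.068. The block changed the call of no other member. For the difference between MX2 and MX1, the exact permutation p within pairs was 0.25. This is the smallest that 3 pairs allow, so it does not show a weaker difference than the 0.10 without pairs.

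Depth limits the untreated MX2 level, which rests on 5 to 8 fragments in a library. DNM3 rests on 73 to 112.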

Other observations

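The table also lists 19 rows with names derived from dynamin genes, the DNM1 pseudogenes and DNM3OS, an antisense RNA of DNM3. Of these, 12 were at 0 in all 6 libraries, and the others held at most 9 fragments in a library, so that none was tested. Their summed level was 0.00951 to 0.145 FPKM in untreated and 0.0216 to 0.184 FPKM in treated libraries.

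DNM1 and DNM1L also overlap other annotated exons. CIZ1, on the strand opposite to DNM1, shares 46 exonic bases with it and was at 16.4 ± 0.287 FPKM in untreated and 15.4 ± 0.139 FPKM in treated libraries (S.D., n = 3 each; log2 fold change -0.08; limma, adjusted p = 0.030). AC084824.4, opposite to DNM1L, shares 202 exonic bases and held 15 to 44 fragments in a library (log2 fold change 0.29; adjusted p = 0.44). Their part in the DNM1 and DNM1L values was not tested.

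The gene length recovered from the values was 17984 bases for MX1, against 8616 bases of merged exons in GENCODE release 29, and 14562 against 13047 for MX2. For DNM1 it was 10748 against 10775, for DNM2 17565 against 13443, for DNM3 11851 against 11329, and for DNM1L 8061 against 7282. The length is the same in every library and leaves a ratio of FPKM as it is, but it enters the comparison of levels between genes and, through the pseudocount, the log2 change of genes with low levels.

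Among the other marker lists, the epithelial markers had a summed level of 0.256 to 0.445 FPKM in untreated and 0.580 to 0.646 FPKM in treated libraries, with CLDN4 at 0.314 ± 0.109 and 0.575 ± 0.0584 FPKM (S.D., n = 3 each; log2 fold change 0.73; limma, adjusted p = 0.047). The neuronal markers summed to 0.465 to 0.599 and 0.515 to 0.675 FPKM, and the endothelial markers to 0.553 to 0.666 and 0.614 to 0.792 FPKM.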
